A study of Mus musculus with 24 samples.

Results

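Operant training within the Thbs1/2 knockout label was examined in 16 of the 24 libraries of a mouse study: 8 from trained animals and 8 from untrained animals, with 4 females and 4 males in each arm. Each library holds bulk poly(A) RNA from the whole anterior cingulate cortex of 1 mouse, a frontal area that takes part in effort and action choice. The genotype given for all 16 is Thbs1/2 KO, a deletion of the thrombospondin genes that astrocytes use to signal to forming synapses, and no promoter, Cre driver or age is given for it. Trained mice (labelled KO_Trained) worked in a Skinner box, a chamber in which an animal acts for food, and were food deprived for it. Untrained mice (labelled KO_Untrained) had food and water freely. Tissue of the behavioural experiment was taken within the hour after its end, so the contrast holds training, food deprivation and recent activity together, and these cannot be told apart. The remaining arm, 8 untrained libraries labelled WT, is used here only as a reference for levels.

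Of the 15232 genes in the deposited table, 12572 had a mean of at least 1 FPKM over all 24 libraries and were tested. FPKM is the number of fragments per kilobase of a gene's length, corrected for how deeply each library was sequenced. Each difference is the trained minus the untrained mean of log2(FPKM + 1), adjusted for sex in limma, a linear model fitted across all genes. A gene was called when its Benjamini-Hochberg adjusted p was under 0.05. "Rose" and "fell" are used only of called genes. Gene lists describe pathways and cell types, and a list is described by how many tested members were called and by its median change, beside the 0.01 median change of all tested genes.

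The genotype labels went against the targeted genes. Thbs1 lay between 2.77 and 5.91 FPKM in the 16 libraries labelled KO and between 0.254 and 0.716 FPKM in those labelled WT, and Thbs2 lay between 2.82 and 3.95 FPKM against 1.52 and 2.31 FPKM. Whether the measured reads cover a deleted part of either gene was not tested. Recovered depth was 16796512 to 20414047 reads in trained and 12343773 to 27233267 reads in untrained libraries, and the mean difference of 1637635 reads had an exact permutation p of 0.369 (2-sided). The deepest library, from untrained male 480, lay at 47 on principal component 1, which held 31.3% of the variance, against −7.53 to 2.44 for the other 15. Its striatal marker level (the mean log2(FPKM + 1) of 15 genes) was 5.06 against 2.48 to 4.35 in the rest of its arm, its septal level 4.39 against 1.73 to 1.94 (7 genes), and its cortical excitatory level 3.33 against 3.98 to 4.25 (19 genes). Untrained male 1 (by its title) held the striatal level of 4.35, and the next in that arm was 2.60. Trained male 1 lay at 3.94, and libraries labelled WT reached 4.47. Because animal 480 lay apart in all of these levels, counts of called members are also given without it for most lists in which they differ. Animal numbers also move with training: all 8 trained animals have numbers over 1000, against only 2 untrained animals (males 1 and 2 by their titles).

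Chaperones are proteins that help others fold. Those of the endoplasmic reticulum (ER) handle secreted and membrane proteins, and a load of unfolded protein there switches on their genes through sensors and factors such as Atf6 and Xbp1. Cytosolic heat-shock proteins are switched on by Hsf1 when proteins unfold in the cytosol, and both systems also work at a basal level in neurons, which make much membrane and secreted protein. Neuronal firing itself switches on immediate-early genes, whose products are transcription factors and synaptic effectors. Sterol synthesis genes, controlled by Srebf1 and Srebf2, serve membranes and myelin.

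In the trained arm 440 genes rose (3.5% of those tested) and 273 fell (2.17%), 713 in all (5.67%). Changes were small: the median was 0.25 for genes that rose and −0.27 for genes that fell, 44 called genes reached an absolute change of 0.5, and 0 reached 1. Chaperones of the ER and of the cytosol and activity-dependent neuronal genes were among those that rose. Regulators of sterol synthesis, some clock genes and zinc-finger factors were among those that fell. Without animal 480, 500 genes rose (3.98%) and 352 fell (2.8%). The 632 genes called in both fits kept their direction and made up 88.6% of the calls with the animal and 74.2% of those without it. All 8 trained values lay above all 8 untrained values for 84 tested genes (0.668%) and below them for 37 (0.294%). Of the 713 called genes 125 belonged to at least 1 of 38 lists and 588 to none.

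**Figure D1:**
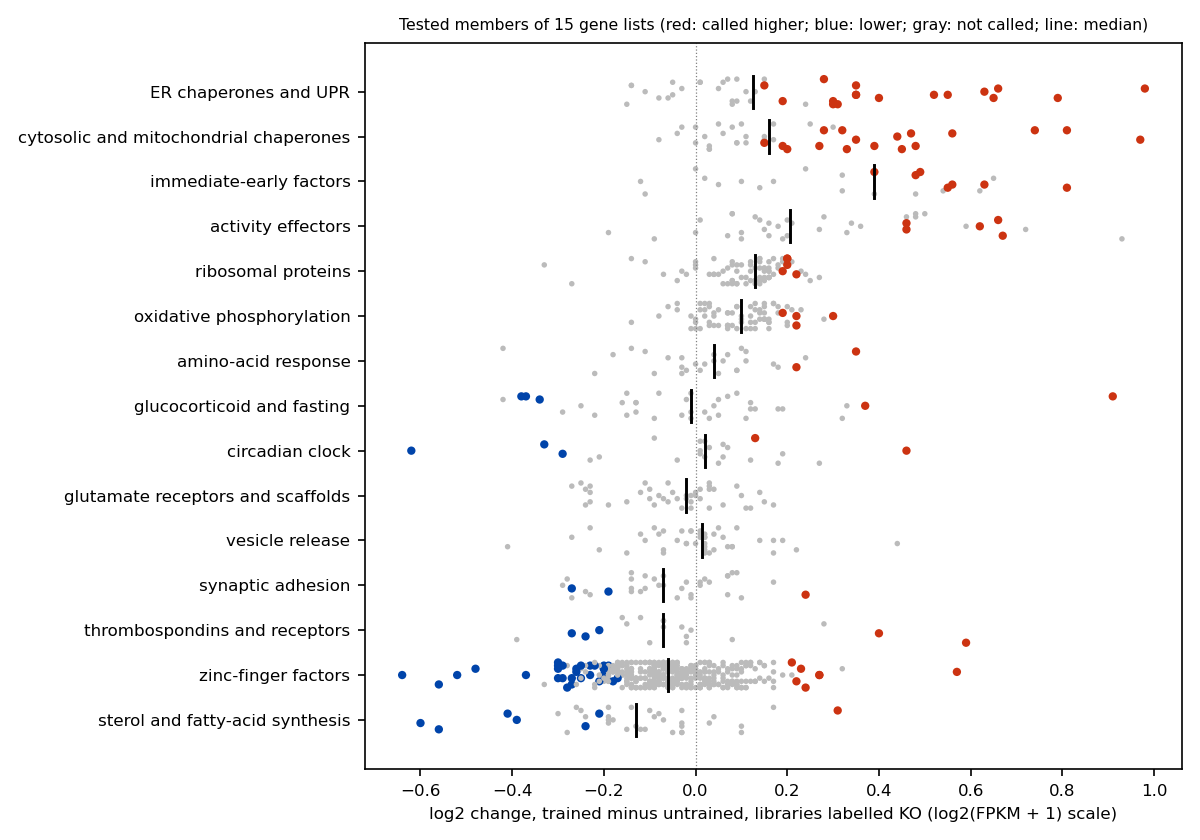
Log2 change (x axis, trained minus untrained, log2(FPKM + 1) scale) of every tested member of 15 gene lists, 1 point per gene, with red for genes that rose, blue for genes that fell, gray for genes not called and a black line at each list's median. The medians of the chaperone and immediate-early lists lie at 0.13, 0.16 and 0.39, and that of the sterol list at −0.13.

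Of 40 tested genes for ER chaperones, folding enzymes, degradation factors and stress sensors, 17 rose and 0 fell, with a list median of 0.13. Without animal 480, 16 rose and 0 fell, and 16 genes were called in both fits. For 13 of the 40 the 2 arms did not overlap. The mean list level was 4.54 to 4.67 in trained libraries, 4.36 to 4.46 in untrained libraries labelled KO and 4.32 to 4.52 in those labelled WT, so all 8 trained libraries lay above the other 16.

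Promoters were searched in RefSeq (build GRCm38.p6, 250 bases before to 50 after each start) for the ER stress element. It is known from ER chaperone genes, so its share on this list is a description and not an independent test. This element is CCAAT, 9 free bases, then CCACG, on either strand, and is bound by Atf6 with the CCAAT factor. It was found for 6 of the 13 called ER genes with an entry (46.2%), for 2 of the 19 not called with an entry (10.5%), for 15 of 9568 tested genes (0.157%) and for 37 of all 27025 genes with an entry (0.137%). The 6 promoter stretches are shown on the gene's strand, 5′ to 3′, with the element in capitals.
Hspa5: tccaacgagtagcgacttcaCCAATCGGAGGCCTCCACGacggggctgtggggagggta
Pdia6: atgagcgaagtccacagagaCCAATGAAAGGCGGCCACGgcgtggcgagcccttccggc
Creld2: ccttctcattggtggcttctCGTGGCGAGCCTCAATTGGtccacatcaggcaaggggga
Calr: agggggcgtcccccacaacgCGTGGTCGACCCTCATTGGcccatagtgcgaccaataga
Dnajc3: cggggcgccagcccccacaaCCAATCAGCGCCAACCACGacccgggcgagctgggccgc
Hsp90b1: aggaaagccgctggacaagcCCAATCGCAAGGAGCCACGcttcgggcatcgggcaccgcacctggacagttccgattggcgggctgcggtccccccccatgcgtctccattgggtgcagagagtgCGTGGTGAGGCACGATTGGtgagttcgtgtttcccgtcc
They lie at chr2:34772005-34772063 (plus strand), chr12:17266471-17266529 (plus), chr15:88819500-88819558 (plus), chr8:84847055-84847113 (minus), chr14:118937807-118937865 (plus) and chr10:86705513-86705676 (minus), in that order, and each ends before the annotated start. The element reads forward in Hspa5, Pdia6 and Dnajc3, in reverse in Creld2 and Calr, and once each way in Hsp90b1, which has 2 matches. All 6 genes that rose and hold the element are on the ER list. The other 9 tested genes with it were not called, and their changes ran from −0.21 (Xlr3b) to 0.09 (Zfp57). Among the 206 genes that fell and have an entry, 0 hold it.

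Hspa5 encodes BiP, the central chaperone of the ER lumen. It lay at 81.3, 86.1 and 114 FPKM (lowest, median, highest) in untrained and at 129, 137 and 165 FPKM in trained libraries, a rise of 0.65 (SE 0.0710, limma adjusted p = 0.000215). The arms did not overlap, animal 480 at 84.6 FPKM was near its arm's median, and the change without it was also 0.65. Sdf2l1, an ER-resident partner of BiP and its J-protein Dnajb11, had the highest change of all called genes, 0.98 (SE 0.127, limma adjusted p = 0.000552). It lay at 3.39, 5.76 and 7.12 FPKM in untrained and at 8.22, 11.2 and 15.7 FPKM in trained libraries. Animal 480 held the lowest of the untrained values, and without it the change was 0.92.

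The disulphide isomerases form and rearrange the disulphide bonds of new proteins. Pdia4 lay at 11.1, 15.3 and 20 FPKM in untrained and at 24.4, 27.4 and 31.0 FPKM in trained libraries and rose by 0.79 (SE 0.0980, limma adjusted p = 0.000427). Pdia6 lay at 35.6, 43.3 and 48.7 FPKM against 57.8, 61.4 and 71.5 FPKM and rose by 0.55. Neither gene overlapped between arms. Pdia3 rose by 0.30, while P4hb, which encodes the most familiar isomerase of the family, changed by 0.08 (limma adjusted p = 0.186) and was not called.

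Creld2 and Manf encode small proteins that the stressed ER makes and can secrete. Creld2 lay at 6.36, 8.24 and 10.3 FPKM in untrained and at 11.6, 13.4 and 14.6 FPKM in trained libraries and rose by 0.66 (SE 0.0757, limma adjusted p = 0.000215). Manf lay at 11.6, 13.3 and 15.9 FPKM against 19.2, 21.1 and 23.1 FPKM and rose by 0.63. Both separated the arms fully. Calr, the calcium-binding chaperone of glycoproteins, lay at 123, 138 and 146 FPKM against 166, 178 and 194 FPKM and rose by 0.40. Its membrane-bound relative Canx, whose promoter also holds the ER stress element, changed by −0.05 (limma adjusted p = 0.573).

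Among regulators, Xbp1, a transcription factor of the unfolded protein response, rose by 0.52. It lay at 27.7, 37.8 and 41.4 FPKM in untrained and at 47.2, 53.1 and 54.3 FPKM in trained libraries, without overlap. The factor Ddit3 (CHOP) rose by 0.35 and Atf4, the factor of the amino-acid and integrated stress response, by 0.22. The sensors themselves were not called: Atf6 changed by 0.24, Ern1 by −0.14 and Eif2ak3 by −0.03. Of 29 tested genes of the amino-acid response Atf4 and Ddit3 rose and 0 fell, and the median was 0.04. Asns, a classical Atf4 target, changed by −0.02.

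The other ER members that rose serve translocation, glycosylation, folding and disposal. They were Hyou1 (0.35), Dnajc3 (0.35), Dnajb11 (0.31), Herpud1 (0.30), Ostc (0.28), Hsp90b1 (0.19) and Sec61a1 (0.15). Sec61a1, which forms the channel into the ER, was not called without animal 480, where its change was also 0.15. Members of ER-associated degradation such as Syvn1 (0.08), Sel1l (0.09) and Edem1 (−0.11) were not called. Outside the lists, P4ha1 and Serpinh1, which modify and fold collagen in the ER, rose by 0.64 and 0.55. These were chosen after their values were seen.

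Of 40 tested cytosolic and mitochondrial chaperones and co-chaperones, 17 rose and 0 fell, with a median of 0.16. Without animal 480, 18 rose and 0 fell, and 17 were called in both fits. The arms did not overlap for 10 members. The list level was 5.0 to 5.14 in trained libraries, 4.78 to 4.88 in untrained libraries labelled KO and 4.80 to 4.97 in those labelled WT, and here too every trained library lay above the other 16.

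The highest changes on this list were those of the small heat-shock proteins Hspb1 and Cryab and of Hspa1b, an inducible Hsp70. Hspb1 (Hsp27) lay at 1.41, 2.19 and 4.35 FPKM in untrained and at 4.34, 5.61 and 7.74 FPKM in trained libraries and rose by 0.97 (SE 0.138, limma adjusted p = 0.00110). The arms touched at 1 value, as the lowest trained library lay just under the highest untrained one. Hspa1b lay at 0.700, 0.892 and 1.34 FPKM against 1.54, 2.26 and 3.10 FPKM and rose by 0.74, with no overlap. Its copy Hspa1a rose by 0.47. Hspa1a and Hspa1b are near-identical copies, so the split of reads between them is uncertain.

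Cryab, a small heat-shock protein also abundant in oligodendrocytes, lay at 21.1, 27.7 and 39.2 FPKM in untrained and at 33.1, 47.6 and 87.6 FPKM in trained libraries, and it rose by 0.81 (SE 0.134, limma adjusted p = 0.00307). Its values overlapped, with 7 of 8 trained libraries above all untrained ones. In the untrained libraries labelled WT it lay at 30.7, 55.7 and 59.3 FPKM. The oligodendrocyte list had a median change of 0.22, and limma called 0 of its 17 members (8 at an unadjusted p under 0.05, and 1 called by limma-voom). Without animal 480 its median was 0.15, and limma called 2 members in opposite directions, Ermn at 0.33 (adjusted p = 0.0429) and Opalin at −0.48 (adjusted p = 0.0204). The part of oligodendrocyte RNA in the change of Cryab was not tested. In bulk tissue, more cells of a type and more RNA per cell cannot be told apart.

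Other Hsp70 machinery rose by less than Hspa1b. Hspa8, the constitutive Hsp70 of neurons, lay at 690, 744 and 782 FPKM in untrained and at 852, 896 and 926 FPKM in trained libraries and rose by 0.27 (SE 0.0436, limma adjusted p = 0.00255). No trained value fell below an untrained one. Its J-protein partner Dnajb1 lay at 19.6, 22.4 and 25.0 FPKM against 28.5, 31.8 and 34.3 FPKM and rose by 0.48. Hsph1, the Hsp110 exchange factor, lay at 67.6, 82.0 and 88.9 FPKM against 97.7, 110 and 124 FPKM and rose by 0.45. Both kept the arms apart.

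Hsp90 works with a set of co-chaperones, and 6 of them rose: Chordc1 by 0.56, Ahsa2 by 0.39, Stip1 by 0.35, Fkbp4 by 0.28, Ahsa1 by 0.20 and Ptges3 by 0.19. Hsp90 itself differed by form, as Hsp90ab1 rose by 0.15 and Hsp90aa1 changed by 0.03 without a call. The mitochondrial pair Hspd1 and Hspe1 changed by 0.30 and 0.17 and was not called with all 16 libraries. Without animal 480 Hspe1 was called, at 0.22. Hsf1, the master factor, changed by 0.25 (limma adjusted p = 0.0642).

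The heat-shock element was searched as GAA, 2 free bases, TTC, 2 free bases, GAA, and as its shifted form that starts with TTC, which overlap in longer runs, on both strands of the same windows. It was found for 2 of 14 called members with an entry (14.3%), for 3 of 18 not called (16.7%) and for 56 of 9568 tested genes (0.585%). The matches among called members were in Hsph1 and Chordc1. Its share was close between called and uncalled members of its list. These counts are too small to tell whether it differs from the ER stress element in this.

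**Figure D2:**
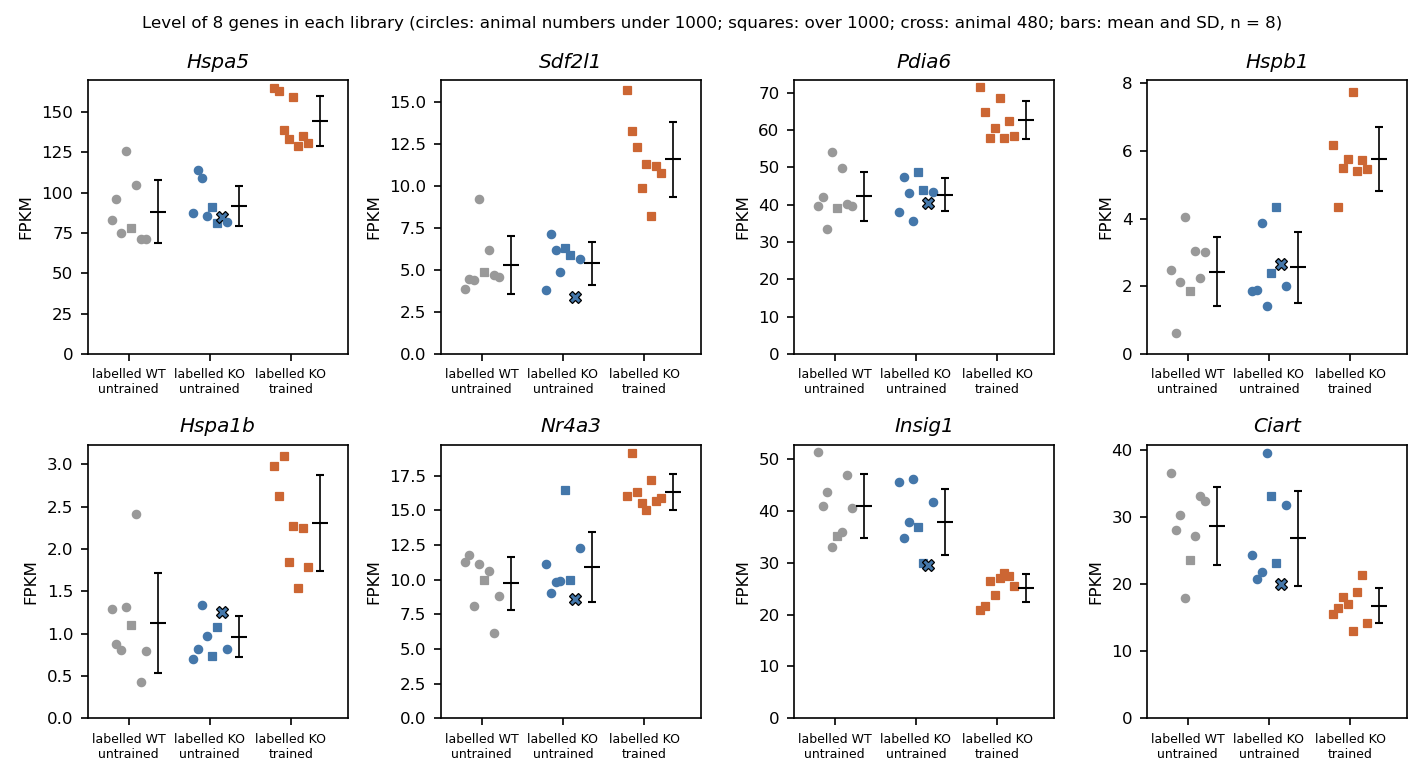
FPKM (y axis, linear) of 8 genes in each of the 24 libraries by arm, with circles for animal numbers under 1000, squares for numbers over 1000, a cross for animal 480, and bars for the mean and SD of 8 libraries. Hspa5, Sdf2l1, Pdia6 and Hspa1b in trained libraries lie above, and Insig1 lies below, all untrained libraries labelled KO, while Nr4a3 overlaps through untrained male 1 at 16.5 FPKM.

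Of 23 tested immediate-early factors 7 rose and 0 fell, with a median of 0.39. Without animal 480, 5 rose and the median was 0.36: Egr2 and Fosb dropped out, at limma adjusted p = 0.0526 and 0.0553. No member separated the arms. Nr4a3, an orphan nuclear receptor, lay at 8.63, 9.95 and 16.5 FPKM in untrained and at 15, 16 and 19.1 FPKM in trained libraries and rose by 0.56 (SE 0.0973, limma adjusted p = 0.00379). Its overlap came from untrained male 1, and the next untrained value was 12.3 FPKM. Nr4a2 rose by 0.55, Egr3 by 0.63, Klf4 by 0.49 and Fosl2 by 0.39.

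Several of the most familiar early genes were not called, and untrained animals differed widely among themselves. Fos lay at 13.7, 28.6 and 55.1 FPKM in untrained and at 34.3, 46.3 and 54.7 FPKM in trained libraries (change 0.65, limma adjusted p = 0.124). Arc lay at 45.4, 103 and 196 FPKM against 152, 202 and 246 FPKM (change 0.93, limma adjusted p = 0.0531). Untrained female 4 and untrained males 1 and 2 were as high as trained animals, with Fos at 52.5, 55.1 and 50.1 FPKM and Arc at 196, 194 and 187 FPKM. The other 5 untrained animals lay below every trained value in Arc. The lowest trained list level of immediate-early factors was 3.81, and the untrained levels ran from 3.25 to 4.15.

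Effector genes downstream of activity followed in the same direction: of 36 tested 5 rose and 0 fell, and without animal 480, 10 rose. Bdnf, the neurotrophin, lay at 1.73, 4.87 and 5.66 FPKM in untrained and at 6.10, 7.08 and 8.53 FPKM in trained libraries and rose by 0.67 (SE 0.151, limma adjusted p = 0.0187). All trained values lay above all untrained ones, and the change was 0.54 without animal 480, which held the lowest value. Nptx2, a secreted organiser of excitatory synapses on interneurons, rose by 0.66 from a median of 17.7 to 28.9 FPKM. Inhba, the activin subunit, rose by 0.62, and the postsynaptic scaffold Homer1 and the growth-factor inhibitor Spry2 rose by 0.46 each. Homer1 lost its call in 11 of 16 leave-one-out fits and Spry2 in 0. Nrn1, Pcsk1, Scg2, Crem and Dusp6 were called only without animal 480, at 0.20, 0.30, 0.32, 0.25 and 0.32.

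Of 37 tested genes of sterol and fatty-acid synthesis 6 fell and 1 rose, with a median of −0.13, and 31 of the 37 changes were negative. Without animal 480, 11 fell and 1 rose. The median was −0.22 in females and −0.01 in males (−0.06 in males without animal 480). In a fit of females alone 18 members fell and 1 rose, and in males alone 0 were called. Insig1 encodes the ER protein that holds back the sterol sensor and is itself a target of the same pathway. It lay at 29.6, 37.4 and 46.1 FPKM in untrained and at 20.9, 26.0 and 28.1 FPKM in trained libraries and fell by 0.56 (SE 0.0953, limma adjusted p = 0.00339). The arms did not overlap, and the lowest untrained value was that of animal 480, without which Insig1 fell by 0.61. Its change was −0.79 in females and −0.33 in males.

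Other members that fell were the lipogenic factor Srebf1 (by 0.41), the cyclase Lss (by 0.39), fatty-acid synthase Fasn (by 0.24) and Dhcr7, which makes the last sterol step (by 0.21). The isomerase Ebp went the other way and rose by 0.31, from a median of 7.93 to 10.2 FPKM. Srebf2, the factor that drives sterol synthesis genes, was not called (−0.03). Mvd, Idi1, Sqle, Hsd17b7 and Stard4 were called only without animal 480, where their changes were −0.34, −0.32, −0.28, −0.22 and −0.32. List levels were 4.48 to 4.67 in trained and 4.53 to 4.81 in untrained libraries, and the 2 lowest untrained levels were those of untrained male 2 and animal 480.

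**Figure D3:**
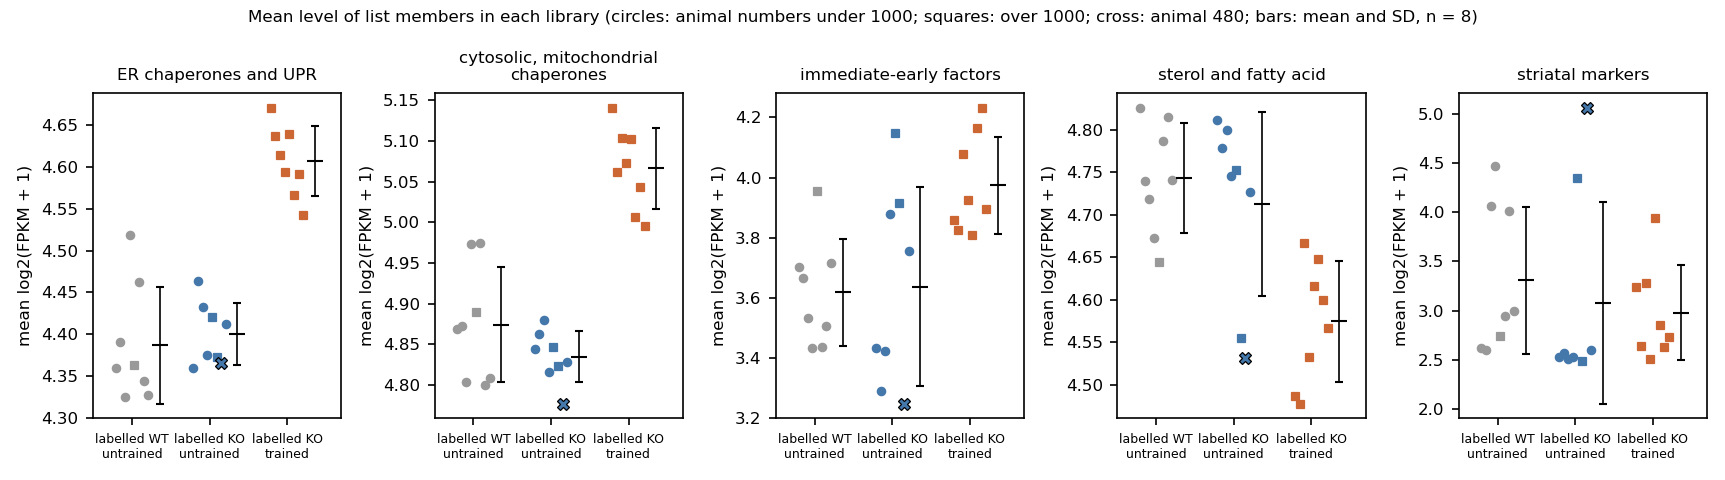
Mean log2(FPKM + 1) (y axis) over the tested members of 5 lists in each of the 24 libraries by arm, marked as circles (numbers under 1000), squares (over 1000) and a cross (animal 480), with bars for the mean and SD of 8 libraries. Both chaperone lists separate the trained libraries, at 4.54 and above and at 5.0 and above, while the immediate-early levels overlap and the striatal level of animal 480 stands at 5.06.

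Of 23 tested clock genes 2 rose and 3 fell, and without animal 480, 1 rose and 4 fell. Ciart, a repressor within the clock, lay at 20, 23.8 and 39.5 FPKM in untrained and at 13.0, 16.8 and 21.4 FPKM in trained libraries and fell by 0.62 (SE 0.134, limma adjusted p = 0.0155). In this gene 7 of 8 trained values lay below all untrained ones, and the other, at 21.4 FPKM, lay above 2 untrained libraries, of which animal 480 was the lower. Nr1d1 (Rev-erb alpha) fell by 0.33 and the repressor Bhlhe41 by 0.29, while Nfil3, which opposes the output factors, rose by 0.46 and the kinase Csnk1d by 0.13. Csnk1d was not called without animal 480 (0.12, limma adjusted p = 0.0538) and lost its call in 11 of 16 leave-one-out fits. Rora, a receptor that opposes Rev-erb, was not called with all 16 libraries but was without animal 480, at −0.33. Per1 (−0.09) and Per2 (0.27) were not called, and the hour of tissue collection is not given for either arm.

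Ciart's promoter holds the E-box CACGTG, the letters that clock activators bind, at 3 places in this stretch before the start, in capitals (chr3:95882247-95882364, minus strand, GRCm38.p6).
Ciart: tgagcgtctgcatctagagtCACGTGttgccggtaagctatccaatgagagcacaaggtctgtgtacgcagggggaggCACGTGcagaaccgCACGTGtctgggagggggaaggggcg
CACGTG reads the same on both strands. It was found for 43 of 206 genes that fell and have an entry (20.9%), for 35 of 351 that rose (9.97%) and for 1150 of 9568 tested genes (12.0%). Of the 3 clock genes that fell, Ciart and Bhlhe41 hold it, as do 3 of the 15 uncalled clock genes with an entry (Per1, Cry1 and Tef). The other 3 of the 6 motifs searched had no match in the called genes of the lists they are known from. These were the cAMP element (TGAC directly followed by GTCA) and the Nr4a element (AAAG directly followed by GTCA), each in 0 of 6 called immediate-early factors with an entry, and the sterol element (ATCAC directly followed by CCCAC), in 0 of 5 sterol genes that fell. On both strands, 3.72%, 1.0% and 0.0627% of tested genes with an entry hold them.

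Genes known to follow corticosterone or fasting had no common direction: of 37 tested 2 rose and 3 fell, with a median of −0.01. The called share was larger than the 5.67% of all tested genes. The lipid-droplet coat gene Plin4 lay at 1.22, 2.75 and 5.81 FPKM in untrained and at 3.78, 6.02 and 9.57 FPKM in trained libraries and rose by 0.91 (SE 0.197, limma adjusted p = 0.0152). Of the trained values, 4 of 8 lay above the untrained range and the others within it. The cell-cycle inhibitor Cdkn1a rose by 0.37. Txnip, a brake on glucose uptake, fell by 0.38, the fasting-induced factor Klf15 by 0.37 and the pyruvate dehydrogenase kinase Pdk4 by 0.34. The corticosterone targets Fkbp5 (0.09) and Sgk1 (0.02) were not called.

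Most ribosomal and respiratory genes had small positive changes. Few were called with all 16 libraries, a share near the 5.67% of all tested genes. Of 77 tested ribosomal protein genes 5 rose and 0 fell, 68 changes were positive (52.2% of all tested genes were), and the median was 0.13. Without animal 480, 12 rose. Of 75 tested nuclear genes of the respiratory chain 4 rose and 0 fell (5 and 0 without animal 480), 68 changes were positive, and the median was 0.10. The counts moved with single libraries: over the 16 leave-one-out fits, 0 to 13 ribosomal and 0 to 16 respiratory genes rose. The ribosomal median was 0.21 in females and 0.04 in males, and the respiratory median 0.13 and 0.06. Rps20 rose by 0.22, from a median of 147 to 167 FPKM, and Atp5l by 0.30, from a median of 88.0 to 108 FPKM, with overlapping arms in both. With every library scaled to an equal sum of FPKM, 1 ribosomal gene rose and the ribosomal median was 0.10. The median of all tested genes was then −0.03, and 41.5% of them were positive. That scaling moved the share of called genes that rose, with 235 higher and 385 lower among all tested genes.

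Zinc-finger transcription factors are a large family with many repressors, and more of its members fell than rose. Of 373 tested 29 fell and 7 rose, the median was −0.06 and 261 changes were negative. Without animal 480, 25 fell and 6 rose. Zkscan16 lay at 22.3, 29.0 and 35.1 FPKM in untrained and at 13.4, 17.8 and 19.5 FPKM in trained libraries and fell by 0.64 (SE 0.0874, limma adjusted p = 0.000719), without overlap. Zfp941 fell by 0.56, Zfp810 by 0.52 and Zkscan2 by 0.48. Zbtb40 went up by 0.57, from a median of 2.33 to 3.54 FPKM, and its arms did not overlap.

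Outside the lists, genes with the lowest changes included RNA-binding factors. Cirbp, the cold-inducible RNA-binding protein, lay at 45.7, 55.7 and 70.4 FPKM in untrained and at 29.8, 36.1 and 52.1 FPKM in trained libraries and fell by 0.56 (SE 0.113, limma adjusted p = 0.0104). Its relative Rbm3 changed by −0.11 (limma adjusted p = 0.229). Srsf5, a splicing factor, fell by 0.50, from a median of 98.2 to 71.1 FPKM, with no overlap. Zc3h6 (by 0.54), Fam214a (by 0.53) and Utp14b (by 0.52) also fell. Of the 8 trained values, all lay below all untrained ones in Zc3h6, Fam214a and Utp14b.

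Features that are short or sparsely covered also stood among the highest changes. Mir703 rose by 0.87 (limma adjusted p = 0.0497) on 1 to 23 reads a library in the untrained and 7 to 14 in the trained arm. Gm20594 rose by 0.67 on 1 to 10 and 3 to 20 reads. In poly(A) libraries, reads over a microRNA's locus need not come from the mature microRNA.

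Other metabolic and signalling lists gave few calls. Vegfa, the vascular growth factor, lay at 12.5, 17.5 and 20.9 FPKM in untrained and at 12.7, 13.7 and 15.1 FPKM in trained libraries and fell by 0.32 among 31 genes of hypoxia and glycolysis. Without animal 480, 3 of these fell, with Adm at −0.21 and Slc16a1 at −0.25 added. The lysosomal enzyme gene Hexa rose by 0.21 among 32 of autophagy and lysosome, and Irf9, of interferon signalling, by 0.26 among 13, where Ifi27 was called without animal 480 as well (0.26). Of 35 insulin, mTOR and AMPK genes limma called 0 and limma-voom 1, with 7 at an unadjusted p under 0.05. Without animal 480 limma called 3 of them, all lower, among them Rictor, a subunit of mTOR complex 2, at −0.22 (adjusted p = 0.0426) and the AMPK subunit Prkab1 at −0.31 (adjusted p = 0.0413). Of 29 TGF-beta and matrix genes limma called 0 and limma-voom 1, with 7 unadjusted.

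Genes of thrombospondin signalling and of the synapse are the study's subject. Among 19 tested thrombospondins, receptors and partners 2 rose and 3 fell, 5 called genes beside the 5.67% called of all tested genes. Without animal 480, 3 rose and 1 fell. Thbs4 lay at 1.91, 2.64 and 3.83 FPKM in untrained and at 2.10, 4.69 and 6.58 FPKM in trained libraries and rose by 0.59. It lost its call in 9 of 16 leave-one-out fits, and in the untrained libraries labelled WT it lay between 1.58 and 6.0 FPKM. The other member that rose was Calr, which also binds thrombospondin. The receptors Cd47 and Lrp1 fell by 0.21 and 0.24, and neither was called without animal 480. Thbs1 changed by 0.28 (limma adjusted p = 0.111) and without animal 480 by 0.33 (limma adjusted p = 0.0427). Thbs2 changed by −0.07. Stim1, Cacna2d1 and Itgb1 were not called.

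Of the 43 glutamate receptor and scaffold genes, 44 vesicle-release genes and 28 sodium and calcium channel genes tested, 0 were called by limma and 0 by limma-voom on recovered reads. Without animal 480 limma called 1 of these, the glutamate receptor Grm3, at −0.29. At an unadjusted p under 0.05 were 6, 4 and 1 of them. The closest were Grik1 (limma adjusted p = 0.113), Erc1 (0.150) and Cacna1b (0.164), all in the same fit. Among 35 synaptic adhesion genes Lrrtm3 rose by 0.24, and Nlgn1 and Ptprs fell by 0.27 and 0.19. Without animal 480 Il1rapl1 was called too, at −0.32. The potassium channel Kcnk1 rose by 0.25 among 71 tested genes of such channels, from a median of 37.9 to 44.2 FPKM and without overlap, and without animal 480, 2 of these genes rose and 2 fell. The astrocyte receptor Ptprz1, 1 of 19 astrocyte synapse factors, fell by 0.41.

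Cell-type markers gave few calls. Of 19 cortical excitatory markers 1 rose (Nr4a2) and 0 fell, and without animal 480, 1 rose and 1 fell. The astrocyte factor Sox9 fell by 0.32 (16 markers tested), with an astrocyte list level of 5.29 to 5.54 in trained and 5.29 to 5.6 in untrained libraries. In the vascular list of 20, Ly6c1, of endothelium, rose by 0.49 and Pdgfrb, of pericytes, fell by 0.28. Of 14 microglial, 10 oligodendrocyte precursor and 15 interneuron markers, limma and limma-voom called 0, with 1, 5 and 1 at an unadjusted p under 0.05. Of the 15 striatal and 7 septal markers 0 were called by either tool, and 0 had an unadjusted p under 0.05. Oligodendrocyte levels ran from 5.14 to 5.85 in trained libraries and from 4.70 to 5.46 in untrained ones, with the lowest in animal 480.

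With animal number over 1000 as a covariate 0 genes passed in limma (1306 at an unadjusted p under 0.05), and among males over 1000, 4 trained and 2 untrained, 0 passed (1320 unadjusted). The lists differed in direction under the covariate, where 49.0% of all tested genes were positive. Of the ER list 35 of 40 changes were positive, with a median of 0.14, and of the cytosolic list 33 of 40, with a median of 0.20. For immediate-early factors 12 of 23 were positive, with a median of 0.02, and for sterol genes 12 of 37, with a median of −0.09. The training term then rests on untrained males 1 and 2, the 2 untrained animals labelled KO with such numbers. Their immediate-early list levels were 4.148 and 3.915 (untrained range 3.25 to 4.15), and their sterol levels 4.753 and 4.555 (4.53 to 4.81). Hspa5 changed by 0.65, Sdf2l1 by 0.68, Insig1 by −0.38, Nr4a3 by 0.31 and Fosb by −0.03 in that fit, none of them called. Among the 2 untrained animals over 1000, Hspa5 lay at 91 and 81.3 FPKM, under every trained value. Hspa5 kept its size of change, while other ER genes had smaller changes in that fit than without the covariate. These were Creld2 (0.46 against 0.66), Manf (0.41 against 0.63) and Pdia6 (0.42 against 0.55), besides Sdf2l1. The part of animal number in the changes was not tested further, since no trained animal has a number under 1000.

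**Figure D4:**
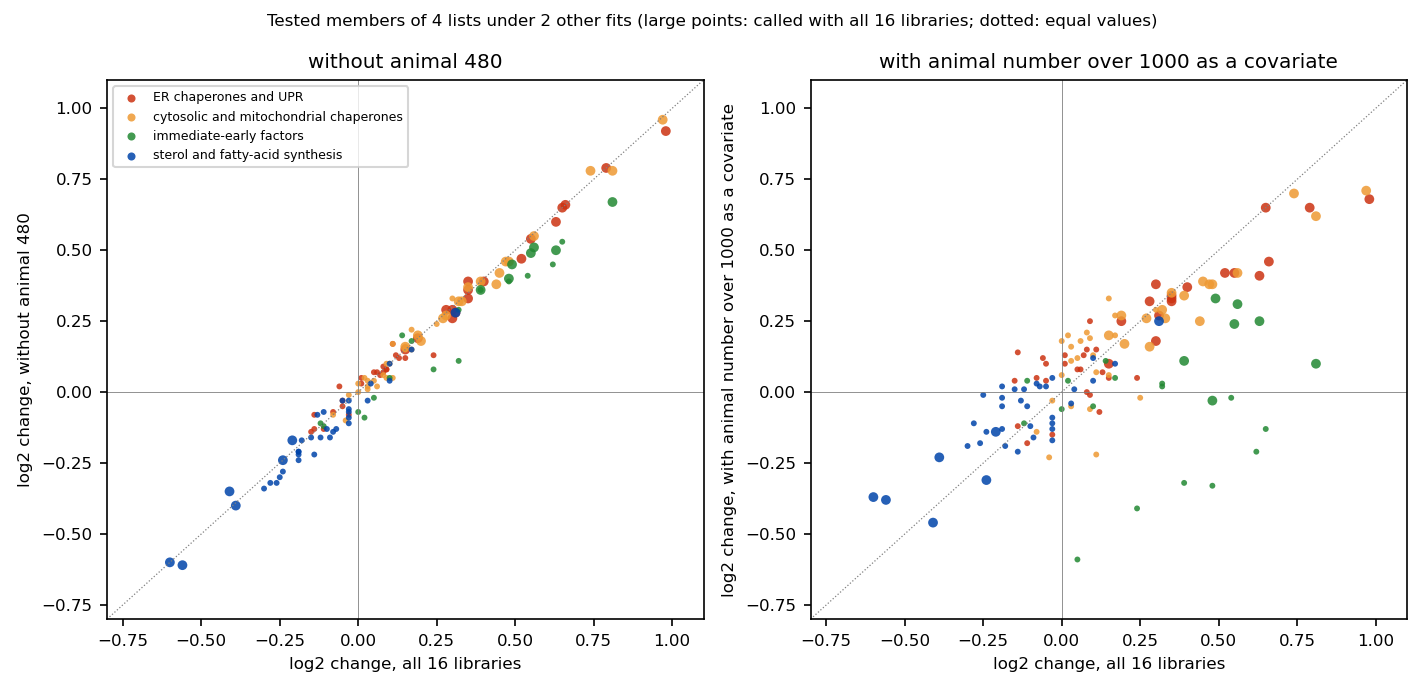
Log2 change of each tested member of 4 lists with all 16 libraries (x axis) against the change without animal 480 (left y axis) and with animal number over 1000 as a covariate (right y axis), where large points mark genes called with all 16 libraries and the dotted line marks equal values. Without animal 480 the points lie near the line, and under the covariate the immediate-early genes spread around a median of 0.02 while the chaperone medians are 0.14 and 0.20.

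Training differed between the sexes for 1 gene in a limma fit with a training-by-sex term, Wbp1 (limma adjusted p = 0.0130), and 1952 genes had an unadjusted p under 0.05. Wbp1 changed by 0.48 in females and −0.09 in males. Without animal 480, 194 genes passed, of which 16 were among the 713. Among the genes described here these included Lss and Fkbp4. Lss changed by −0.61 in females and −0.16 in males in that fit.

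Fitted alone, the 8 female libraries gave 1041 genes that rose (8.28%) and 933 that fell (7.42%), and 506 of these 1974 were called in the same direction with all 16 libraries. The 8 male libraries, which include animal 480, gave 0 (1363 at an unadjusted p under 0.05), as did the 7 without it (1559 unadjusted). Calls in one sex and not in the other do not show a difference between them, which is what the interaction term tests. List medians in females and males were 0.17 and 0.14 for the ER list, 0.19 and 0.17 for the cytosolic list and 0.39 and 0.28 for immediate-early factors. In males without animal 480 these medians were 0.12, 0.19 and 0.08.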

How the data were processed

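The authors deposited 1 table of FPKM for 15232 genes in 24 libraries (TruSeq stranded mRNA kit, per the labels' protocols). Per the submitters' processing notes the build was mm10 and the tools were FastQC 0.11.7, Trimmomatic 0.38, STAR 2.5.3a and featureCounts, with Subread 1.6.3, with no role or order stated. The annotation and the program that made the FPKM are not given in the sources used here. The table shows 24 gene symbols as dates. Columns were matched to animals by number. No label says that the animals of an arm were independent of litter or cage, so p-values measure the spread between these animals.

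From the deposited FPKM, values of log2(FPKM + 1) were computed for genes with a mean of at least 1 FPKM and fitted in limma 3.58.1 (R 4.3.3) with training and sex and a trended prior (Benjamini-Hochberg). Each gene's values step by a fixed amount, the share of 1 read, from which reads were recovered for 15232 genes (99.99% of values whole within 0.01 reads). limma-voom on them called 799 genes. On simulated data the fit recovered 91 of 100 genes changed by 0.5 and 100 of 100 changed by 1, with 14 calls among unchanged genes of 12572. The simulated noise was normal and independent between genes and libraries, with no sex effect and no displaced library. Genes of low level were not among those changed, so recovery in the real libraries can be lower. The pseudocount of 1 understates the fold of low genes.

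Genes named are Thbs1 and Thbs2, the 12 called genes with the highest and the 12 with the lowest change (same sign in both sexes), up to 8 called members of each list by adjusted p (the 2 lowest p where none was called), and others, chosen after their values were seen, that complete a list's account or are said to lie outside the lists. Some genes that this rule gives are not named here but stay in the counts. The groups, members and lists were chosen with earlier results of these data known. Alternatives were another pseudocount (0.1), other filters, scalings, weights and priors, a replicate block, each library left out, each sex alone, animal number, limma-voom and correction for length and GC content (20 bins). Promoters and motifs come from RefSeq (GRCm38.p6), where 9568 of the 12572 symbols had an entry.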

Additional observations from a re-analysis of the deposited data

Results flagged for a closer look

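Among 88 called genes given by the naming rule (further list members that the text mentions were not screened), both arms of 8 were screened for 1 value far from the rest, by the gap to its neighbour relative to the arm's range. Of 176 such screens 15 found such a value, against about 8.8 by chance. Animal 480 gave 1 of them, Zfp941 at 10.7 FPKM, the highest of the untrained arm. Untrained male 1 was highest of its arm in Egr2 (14.8 FPKM), Nr4a3 (16.5 FPKM), Fosb (13.6 FPKM) and Zbtb2 (4.0 FPKM). Trained male 3 was highest in Atf4 (75.3 FPKM) and Uqcrh (275 FPKM) and lowest in Inhba (1.90 FPKM), Nlgn1 (11.2 FPKM) and Cd47 (26 FPKM). Trained male 4 was lowest in Zbtb2 (3.57 FPKM) and highest in Pdgfrb (4.99 FPKM). Among untrained animals, female 2 was lowest in Klf15 (8.74 FPKM), female 3 in Ddit3 (15.2 FPKM) and male 2 in Zfp39 (3.21 FPKM). Wbp1 was marked because its change differed between the sexes, by −0.57 as males minus females (limma adjusted p = 0.0130 for the interaction).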

How the results depend on the processing

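Fits without animal 480 combined with the GC and length correction or with library weights, the interaction without animal 480 and the counts within each sex were chosen after seeing the data. Of the 713 called genes 301 were called in all 16 fits that each left out one library, and 412 lost the call in at least 1. For the 125 on a list these numbers were 72 and 53. Named genes that lost the call in many of the 16 fits included Mir703 and Fosb (14 each) and Egr2 and Lrp1 (13 each). Others were Ptprz1, Atp5l and Cd47 (12 each), Ptprs and Gm20594 (11 each), Srebf1 and Cdkn1a (10 each) and Dhcr7 (9). In those fits 16 to 17 ER genes, 15 to 19 cytosolic chaperones and 4 to 8 immediate-early factors rose and 4 to 11 sterol genes fell. Over all genes, 330 to 945 were called, 199 to 561 higher and 128 to 384 lower. The fits with over 1.5 times fewer calls were those without untrained female 1 (330) or 4 (472), and without trained female 1 (332), 2 (408) or 4 (433), and without trained female 3, 289 were higher. Without animal 480, 194 genes passed for the interaction with sex, against 1.

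Called genes (higher and lower) numbered 422 (268 and 154) with no sex covariate, 1238 (701 and 537) with all 24 libraries in one fit, 2020 (1120 and 900) with library weights and 1953 (1073 and 880) with weights without animal 480. After the GC and length correction 456 were lower, and without animal 480, 1366 were called (733 and 633). An equal sum per library gave 235 higher, and without animal 480, 514 lower. The animal-number covariate gave 0 (0 and 0), also without animal 480 (1769 at an unadjusted p under 0.05), and males over 1000 gave 0 (0 and 0). Females alone gave 1974 (1041 and 933), and males alone 0 (0 and 0), with or without animal 480. In both number fits Fosb reversed, to −0.03. What caused these shifts was not tested. The replicate block, which leaves out the trained female whose title has no number (called 4 here) and untrained female 4, gave 29 (21 and 8), with 8 ER genes, 5 cytosolic chaperones and 0 immediate-early or sterol genes. Same-numbered animals' deviations had a mean correlation of −0.07 (−0.20 to 0.10, 7 pairs) and others 0.02. With so few pairs, whether the numbers pair animals by litter, cage or batch cannot be told. With 8 animals an arm, changes can be missed, also those over 0.5. The highest change of any tested gene was 1.23, yet 0 genes with an absolute change of 1 or more were called.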
